A study of Bos taurus and Bos grunniens and Bubalus bubalis with 15 samples.

Results

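Immediate early and stress-induced transcription factors were followed in longissimus dorsi, a back muscle that extends the spine, of cattle, yak and buffalo. The 6 genes were FOS, EGR1, NR4A2, KLF4, MYC and CEBPD, and every probe set that the array's annotation gives to one of those symbols was used: 13 probe sets of 24128, and 6 of the 9155 genes that probe sets name singly. MYC, KLF4 and NR4A2 had been picked from these same arrays for their difference between females and intact males of Qinchuan cattle, and what led to the choice of FOS, EGR1 and CEBPD is not recorded. Comparisons of these 6 genes among the cattle groups are therefore given as descriptions without a test. Of the 13 probe sets, 10 passed the filter on dim probe sets, a mean log2 intensity above the 40th percentile of the array, and 3 of the 4 NR4A2 probe sets did not. A gene is represented by its brightest probe set.

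Samples came from Guangxi buffalo, Qinghai yak, and Qinchuan cattle that were female, castrated male or intact male, with 3 arrays per group and 15 in all, all from animals 36 months old. The labels call the arrays biological replicates and give the sex of the cattle only. Total RNA of frozen muscle was hybridised to a cattle expression array, so its probes hold cattle sequence. A lower intensity in yak or buffalo and a poorer match of their transcripts to the probes cannot be told apart. In whole muscle, fewer cells of a type and less RNA per cell cannot be told apart either.

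Immediate early genes are transcribed within minutes of a signal such as a growth factor, stretch or cellular stress, from factors already present in the cell and without new protein synthesis. Kinase cascades reach SRF, its ELK partners and CREB at their promoters, and the resulting messengers are short-lived. In skeletal muscle the class is known to respond to exercise, contraction and injury. CEBPD belongs to the C/EBP family and is known as an acute phase gene that interleukin 6, STAT3 and glucocorticoids induce.

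Arrays of one group correlated with a median r of 0.984 over 15 pairs, against 0.939 for 90 pairs of different groups, and no pair of arrays held identical values. Array mean intensity lay between 304 and 313 in buffalo, 335 and 359 in yak, 342 and 351 in females, 344 and 353 in castrated males and 349 and 364 in intact males. The actin 3′ to 5′ probe ratio, a sign of RNA quality, was 1.42 to 1.73 in buffalo and 1.49 to 1.93 in yak, against 1.22 to 1.33 in females, 1.24 to 1.27 in castrated males and 1.17 to 1.48 in intact males. All 14 muscle fibre markers on the array, of 17 listed, passed the filter, and their summed intensity was 146276 to 155721 in buffalo, 165510 to 174300 in yak, 171895 to 183810 in females, 175932 to 185336 in castrated males and 141397 to 178264 in intact males. The 17 macrophage markers on the array, of 21 listed, summed to 1389 to 1927 in buffalo, 2011 to 2084 in yak, 1630.43 to 2854 in females, 2921 to 4582 in castrated males and 8059 to 41758 in intact males, with none at 0. The 12 fibroblast markers summed to 4342 to 6785 in buffalo, 5268 to 6892 in yak, 9583 to 12145 in females, 12630.4 to 13234 in castrated males and 34272 to 46868 in intact males. Intact males thus stood apart from the other groups in both marker sums, and the part of these cells in the results was not tested.

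FOS encodes the subunit that pairs with JUN proteins to form the AP-1 factor. Its intensity was 752, 2593 and 2974 in buffalo, 7003, 6063.5 and 3494 in yak, 231, 916 and 3546 in females, 901, 3668 and 5797 in castrated males, and 4849.5, 4337 and 2982 in intact males. The arrays of a group were far apart: the lowest female and the lowest castrated male lay below every intact male and every yak, while the highest female lay above the lowest of both. The order of the group means was yak, intact male, castrated male, buffalo and female, and the ranges of all neighbours in that order overlapped. The second FOS probe set was lowest on the same female array, at 78.3, and highest on the same yak array, at 3783.

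EGR1 encodes a zinc finger factor that SRF and its partners induce. Its intensity was 137, 211 and 295 in buffalo, 4756, 1625 and 341 in yak, 127, 196 and 1674 in females, 549.6, 1744 and 1346 in castrated males, and 3270.3, 1247 and 829 in intact males. Buffalo were uniformly low, whereas 2 of 3 females were as low as buffalo and the other was as high as most males. The means ran in the order yak, intact male, castrated male, female and buffalo, with overlap between all neighbours. The second EGR1 probe set moved little, between 73.9 and 129.9 over the 15 arrays, so the pair disagrees and the gene's values here rest on the brighter one.

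NR4A2 encodes an orphan nuclear receptor that is itself an immediate early gene. Its intensity was 45.3, 41.2 and 42.4 in buffalo, 245, 998 and 444 in yak, 24.9, 34.3 and 86.2 in females, 93.5, 218 and 332 in castrated males, and 1060.02, 1124 and 432 in intact males. Buffalo were low with almost no spread, and females were low as well. The means ran from intact male through yak, castrated male and female to buffalo, and of these neighbours castrated males and females did not overlap. The other 3 NR4A2 probe sets stayed below the filter and ranged from 45.3 to 72.4, from 8.43 to 34.7 and from 1.98 to 7.18.

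KLF4 encodes a Krüppel-like factor known from growth arrest and from the reprogramming of cells. Its intensity was 347, 416 and 524 in buffalo, 2051, 2649.8 and 1742 in yak, 332, 471 and 1299 in females, 1147, 2055 and 2253 in castrated males, and 2321, 2463 and 2069.75 in intact males. Buffalo and 2 of the 3 females formed the low end, and the other 10 arrays lay at 1147 or above. The means ran in the order intact male, yak, castrated male, female and buffalo, with overlap between all neighbours.

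MYC encodes a factor that drives ribosome production and growth as a heterodimer with MAX. Its intensity was 223, 395 and 199 in buffalo, 781, 692 and 441 in yak, 69.4, 123 and 185 in females, 218, 329 and 311 in castrated males, and 2065, 839 and 396 in intact males. All yak arrays lay above all castrated males, and all females lay below every other array. The first intact male array held the highest MYC value. The same array held the highest macrophage marker sum, 41758, against 12245 and 8059 on the other intact male arrays. The means ran in the order intact male, yak, castrated male, buffalo and female. Yak and castrated males did not overlap, nor did buffalo and females, while the other neighbours did.

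CEBPD encodes C/EBP delta. Its intensity was 3825, 1739 and 4339.5 in buffalo, 8020.1, 6737 and 5281 in yak, 1229.98, 381 and 792 in females, 3516, 3497 and 2304 in castrated males, and 3768, 2193 and 1564 in intact males. Yak exceeded all other arrays and females lay below all others. The means ran in the order yak, buffalo, castrated male, intact male and female, an order in which yak and buffalo, and intact males and females, did not overlap. CEBPD was the only member whose lowest array was the second female, since the first female was lowest for the other 5.

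**Figure D1:**
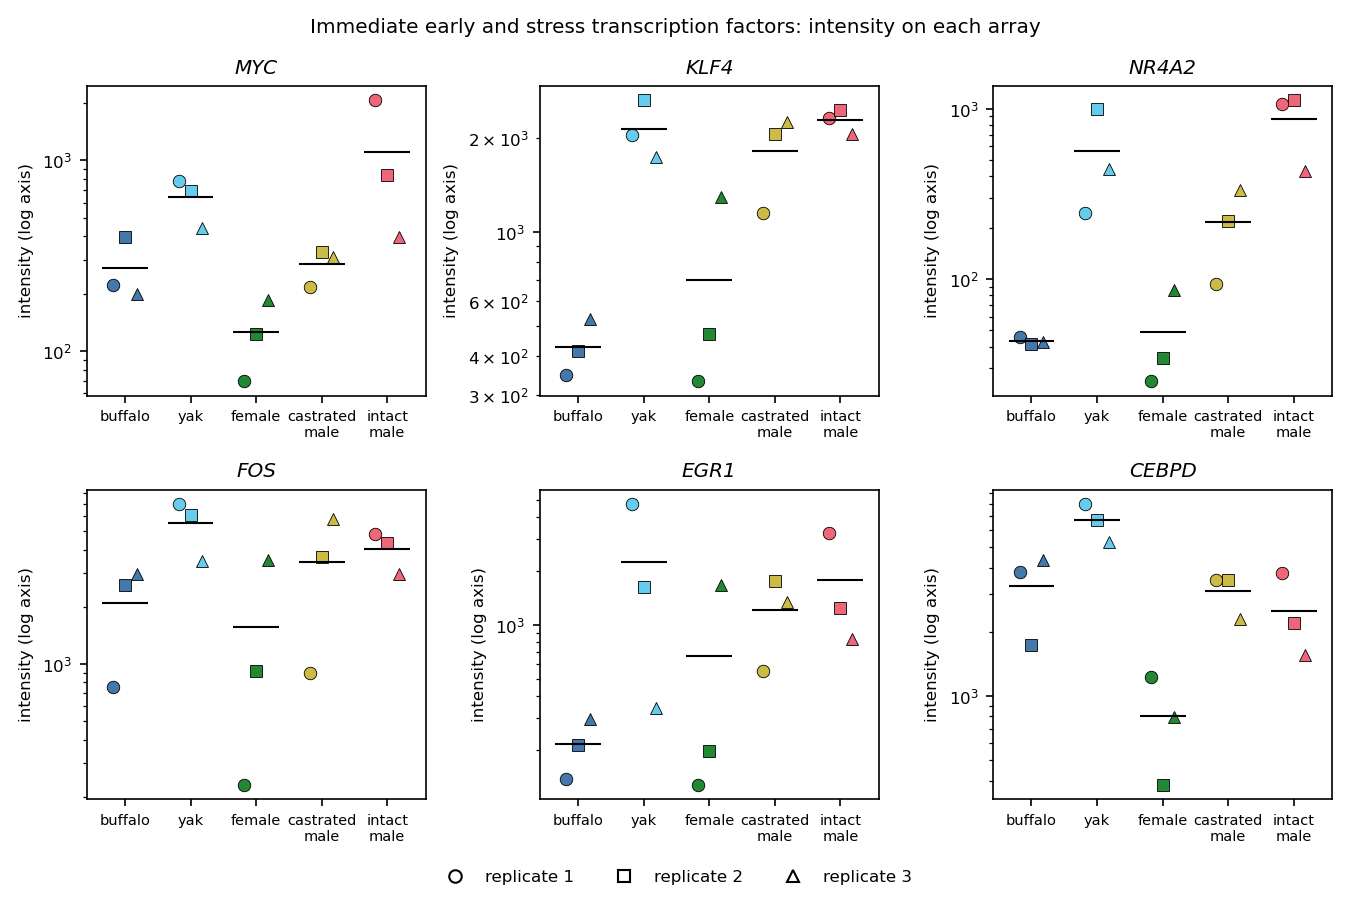
Intensity of each gene's representative probe set on a log axis, by group from buffalo to intact male; symbols mark the 3 arrays of a group and the black line their mean. Yak lie above all other arrays for CEBPD, females lie below all others for MYC and CEBPD, and the arrays of one group are widest apart for FOS and EGR1.

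Among the cattle groups, differences are on the scale of log2 of intensity plus 16, which understates the change of dim probe sets. In castrated males against intact males the difference (± SE) was −1.98 ± 0.51 for NR4A2 and −1.60 ± 0.53 for MYC, the genes whose ranges did not overlap, and it lay between −0.56 and 0.37 for the other 4. In females against intact males it was −3.78 ± 0.51 for NR4A2, −2.75 ± 0.53 for MYC, −1.92 ± 0.44 for KLF4 and −1.68 ± 0.43 for CEBPD, all without overlap. It was −2.09 ± 0.92 for FOS and −2.03 ± 0.89 for EGR1, whose ranges overlapped. In females against castrated males it lay between −2.06 for CEBPD and −1.16 for MYC, and the ranges of MYC, NR4A2 and CEBPD did not overlap. Genes that were lower without overlap numbered 2, 4 and 3 of 6 in these comparisons, where 13.5%, 17.4% and 8.56% of all tested probe sets were lower without overlap. These comparisons share arrays, and the second of them chose MYC, KLF4 and NR4A2.

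Of the other genes of these pathways, few passed limma's test in cattle. In castrated males against intact males, 0.84% of all 14409 tested probe sets were called lower and 0.625% higher, and 1 of 24 other immediate early genes was among those lower. That gene was PIM1, a kinase induced by cytokines, with an intensity of 73.1 ± 22.1 in castrated males and 171 ± 24.0 in intact males (SD, n = 3 each; difference −1.09, adjusted p = 0.0491 by limma). In females against intact males 3.37% were called lower and 2.12% higher. PIM1 fell by 1.33 and ID1, an inhibitor of basic helix-loop-helix factors, fell by 1.51 (adjusted p = 0.0187 and 0.0288 by limma), the 2 of 24 other immediate early genes that passed.

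Among 14 upstream kinases and promoter-binding factors, CREM, a cAMP-responsive factor, fell by 1.99 in females against intact males and SRF was higher by 0.65 (adjusted p = 0.0235 and 0.0394 by limma). Among 10 glucocorticoid response genes the metallothioneins MT1A and MT2A fell in females, with differences of −3.64 and −2.21 (adjusted p = 0.000403 and 0.0288 by limma). The other 8 did not pass. MT1A also fell in castrated males, by 2.13 (adjusted p = 0.0112 by limma). Among 10 interleukin 6 and STAT3 response genes, PTX3, TIMP1 and BCL3 fell in females, with differences of −4.14, −2.14 and −0.71 (adjusted p = 0.0405, 0.0365 and 0.0351 by limma), and 7 did not pass. No gene of the AP-1, EGR, NR4A and KLF, MYC target or C/EBP lists passed in either comparison with intact males. In females against castrated males limma called 3 probe sets over the whole array, 0.0208%, and no gene of any list. All lists were chosen with earlier results of these data known, so the adjusted p values are no separate support for a list. The same holds for the lists in the species comparisons below.

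The spread between arrays of one group does not enter as a group difference, although whether it played a part in the choice of FOS, EGR1 and CEBPD is not recorded. The pooled within-group standard deviation was 1.36 for EGR1, 1.20 for FOS, 0.74 for NR4A2, 0.68 for MYC, 0.60 for CEBPD and 0.54 for KLF4, in log2 units, against a median of 0.19 over all tested probe sets. Of the 14409 tested probe sets, 7 (0.0486%) spread more widely than EGR1 and 16 (0.111%) more widely than FOS. For KLF4, with the smallest spread of the 6, 486 probe sets (3.37%) spread more widely.

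Within groups, several pairs among 5 of the genes moved together from array to array, and no pair with CEBPD passed the test. Each value was expressed as its deviation from its group mean, and the 15 pairs of genes were compared over the 15 arrays with a two-sided exact permutation test that exchanged arrays within groups only (7776 arrangements, Benjamini-Hochberg adjustment over 15 pairs). Both the Pearson and the Spearman coefficient passed for 6 pairs, all among FOS, EGR1, KLF4, MYC and NR4A2.

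FOS and EGR1 deviated to the same side on 14 of 15 arrays and shared their lowest array in 5 of 5 groups. Pearson's r was 0.77 (exact permutation p = 0.000514, adjusted p = 0.00772) and Spearman's rho was 0.84 (exact permutation p = 0.000514, adjusted p = 0.00772). Without the 2 arrays farthest from the median of FOS, the first female and the first castrated male, r was 0.74. KLF4 and FOS gave r = 0.92 (exact permutation p = 0.00103, adjusted p = 0.00772) and rho = 0.87 (exact permutation p = 0.00244, adjusted p = 0.0183), with r = 0.85 without females 1 and 3. They too shared their lowest array in 5 of 5 groups.

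MYC followed both FOS and EGR1. With EGR1, r was 0.71 and rho 0.80 (exact permutation p = 0.00334 and 0.00399, adjusted p = 0.0167 and 0.0199), and r was 0.76 without intact males 1 and 3. With FOS, r was 0.58 and rho 0.66 (exact permutation p = 0.00836 and 0.0112, adjusted p = 0.0251 and 0.0336), and r was 0.77 without the same arrays. KLF4 and NR4A2 gave r = 0.70 and rho = 0.80 (exact permutation p = 0.00694 and 0.0081, adjusted p = 0.0251 and 0.0304), and r was 0.70 without females 1 and 3. KLF4 and EGR1 gave r = 0.76 and rho = 0.77 (exact permutation p = 0.0127 and 0.0153, adjusted p = 0.0318 and 0.0383), and r was 0.59 without those females.

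CEBPD gave r between −0.22 and 0.27 with the other 5, and no pair with it passed (adjusted exact permutation p between 0.633 and 0.972). FOS with EGR1 passed in all 9 alternative settings, with adjusted exact permutation p between 0.00772 and 0.0463. The other pairs did not: 2 pairs passed without the 3 intact males, 1 without the 3 castrated males and 2 without the 3 females. KLF4 with EGR1 did not pass after quantile normalisation (adjusted exact permutation p = 0.0904), nor without the buffalo (0.0546), and KLF4 with FOS did not pass without the castrated males (0.081).

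**Figure D2:**
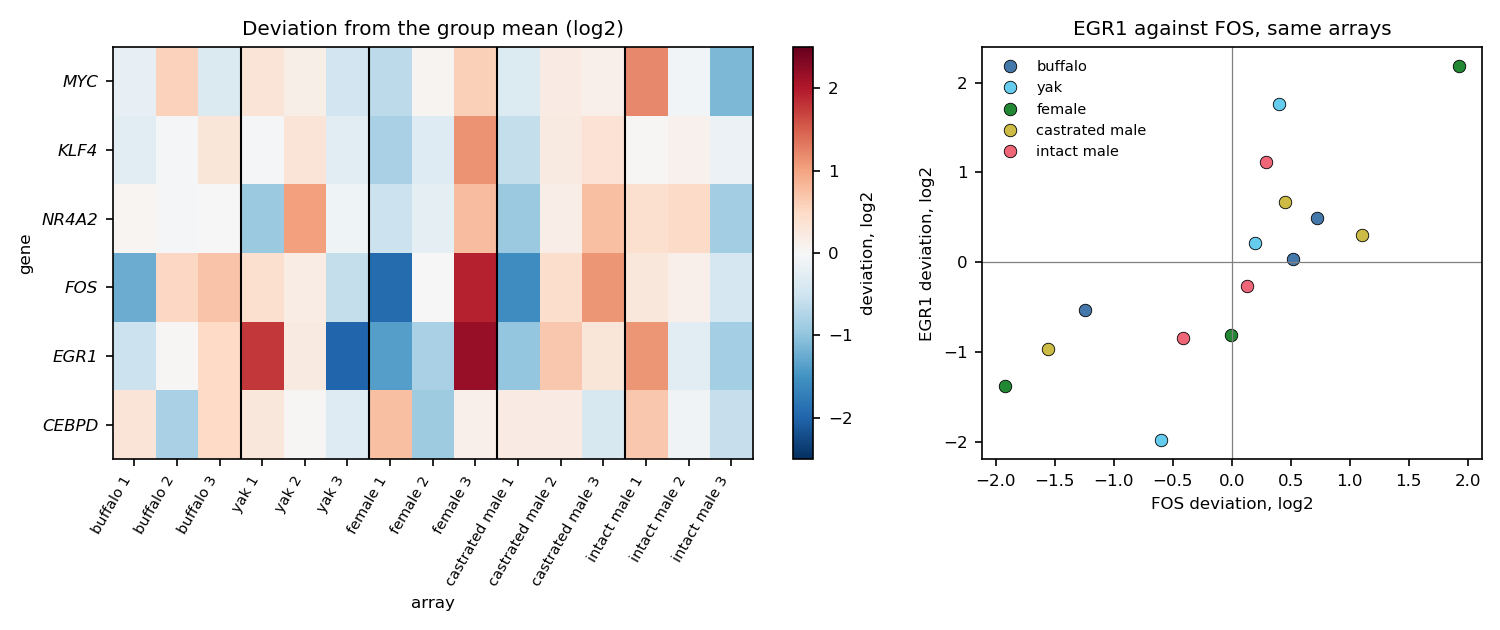
Left, deviation of each gene from its group mean (log2 units, colour) on the 15 arrays; right, the deviation of EGR1 against that of FOS, with 1 point per array. FOS and EGR1 deviate to the same side on 14 of 15 arrays (r = 0.77), and no pair with CEBPD passed the test over the 15 arrays.

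The deviations of FOS and EGR1 also followed the mean intensity of the array, 1 of 8 array measures set against the 6 genes (48 relations, adjusted together). With FOS, r was 0.64 and rho 0.78 (exact permutation p = 0.000129, adjusted p = 0.00619, for both), and r was 0.74 without yaks 1 and 3. With EGR1, r was 0.83 and rho 0.85 (exact permutation p = 0.00193 and 0.00167, adjusted p = 0.0463 and 0.0401), and r was 0.72 without those yaks. After quantile normalisation FOS and EGR1 gave r = 0.78 with each other (adjusted exact permutation p = 0.00965). The part of array mean intensity in their correlation was not tested. With the other genes the mean intensity did not pass, at r = 0.72 for MYC, 0.43 for KLF4, 0.16 for CEBPD and 0.11 for NR4A2. No other array measure passed with FOS or EGR1. The macrophage marker sum gave r = −0.0037 with FOS, 0.20 with EGR1 and −0.10 with KLF4. It gave 0.66 with MYC, 0.42 with CEBPD and 0.29 with NR4A2, and none of these passed. For CEBPD no measure passed, and the farthest was the blood marker sum (r = −0.69, adjusted exact permutation p = 0.088).

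Several other immediate early genes had a within-group pattern like that of FOS. Of all other tested probe sets, 1.74% had a within-group r over 0.7 with FOS, and the median was 0.03. Of 8 other AP-1 and ATF factors, 5 were over 0.7, and the median of the 8 was 0.83. They were MAFF (0.94) and ATF3 (0.89), which are small basic leucine zipper factors, and JUNB (0.88), JUN (0.88) and JUND (0.78), the partners of FOS. Of 24 other immediate early genes, 8 were over 0.7 with a median of 0.49 for the list. These included MCL1, a survival factor (0.91), DUSP1, a phosphatase that shuts off MAP kinases (0.83), CCN2, a matricellular growth factor (0.81), and ZFP36, which destabilises short-lived messengers (0.80).

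Of 6 other EGR, NR4A and KLF genes, NR4A1 (0.87) and KLF10 (0.70) were over 0.7. None of 14 upstream kinases and promoter-binding factors was, nor any of 15 macrophage or 14 muscle fibre markers. At the 1.74% share over all other tested probe sets, none is the likely count for each of these lists. With EGR1, 1.51% of tested probe sets were over 0.7, and the leading listed genes were ZFP36 (0.92), PPP1R15A, a phosphatase subunit of the stress response (0.91), IER2 (0.88), JUN (0.88) and JUNB (0.86). With CEBPD, 0.819% were over 0.7. None of the 8 AP-1 and ATF factors was among them, the likely count at that share, and the median of the 8 was −0.20. Of the 24 other immediate early genes 2 were, BTG1 (0.84) and PLK3 (0.77). CEBPB, its close relative, stood at 0.63. These genes were named after their values were seen, and the coefficients describe 15 arrays that all genes share.

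**Figure D3:**
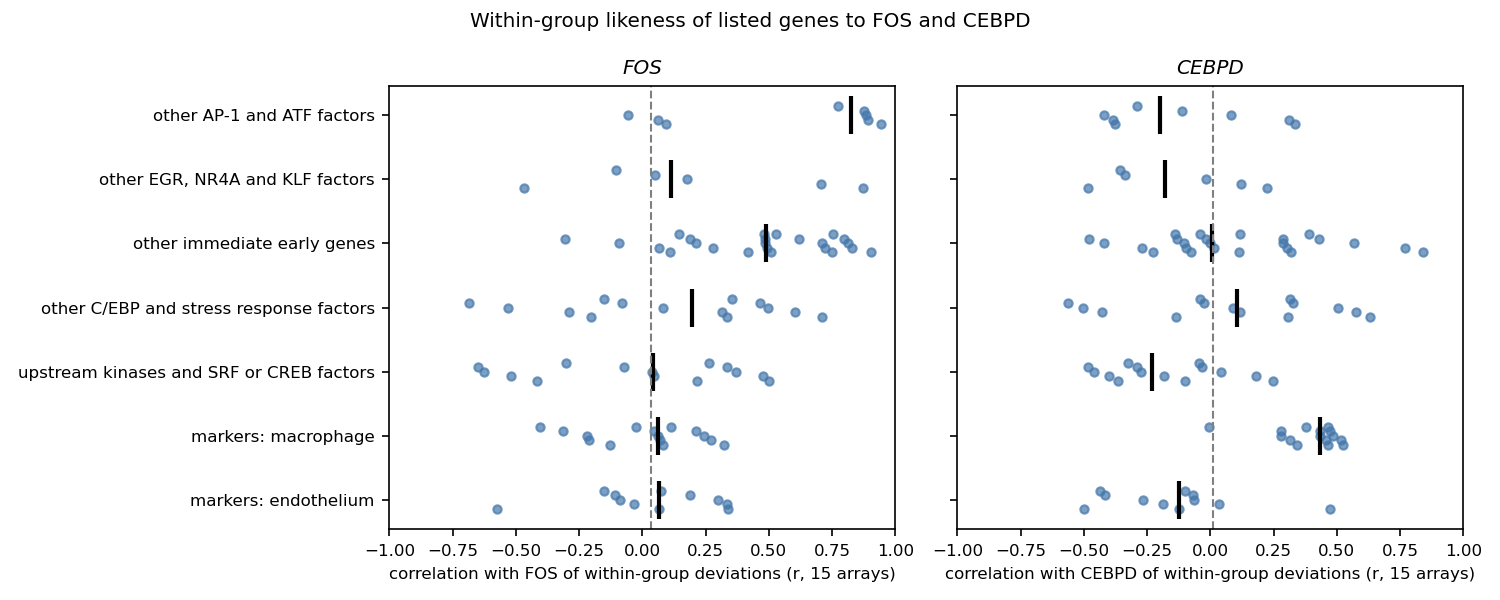
Within-group correlation of each listed gene with FOS and with CEBPD (x axis, Pearson's r over 15 arrays), by gene list; the black tick is the median of the list and the dashed grey line the median of all tested probe sets. The AP-1 and ATF list lies mostly to the right for FOS, with a median of 0.83, and its median for CEBPD is −0.20.

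Over the 15 arrays, the 3 genes most like each member were found by Pearson's r, which then also holds the differences between groups. KLF4 was followed most closely by FOSB (0.95), CDR2 (0.92) and NR4A1 (0.92). NR4A2 was followed by CDR2 (0.96), KLF4 (0.91) and GEM, a small GTPase (0.90). FOS was followed by ATF3 (0.92), TCEAL4 (0.87) and ZFP36 (0.86), and EGR1 by JUNB (0.92), ZFP36 (0.92) and FOSB (0.92). MYC was followed by ATP6V0E1, a subunit of the vacuolar proton pump (0.92), TIPARP, an ADP-ribosyltransferase (0.91), and NAP1L1, a histone chaperone (0.90). The FOSB probe set named here is not the brightest of that gene. The brightest, used in the AP-1 list, gave within-group r of −0.06 with FOS and −0.03 with EGR1, so the FOSB probe sets disagree. CEBPD was followed by LYPLA2 (0.86), TMEM59 (0.86) and RUFY3 (0.84), none of them on any list here.

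Differences between species were tested on the buffalo, yak and castrated male arrays alone, so that no female or intact male array entered the fit, although the filter that set which probe sets were tested used the mean over all 15. The 3 comparisons share arrays with one another. The labels do not give the sex of the yak and buffalo. A difference of species and one of sex or castration therefore cannot be told apart. In yak against castrated males limma called 2 of the 6 genes higher and none lower, where 8.22% of all tested probe sets were called higher and 9.9% lower. MYC averaged 638 ± 176 in yak and 286 ± 59.8 in castrated males (SD, n = 3 each), a difference of 1.10 ± 0.29 (SE, adjusted p = 0.0271 by limma). CEBPD averaged 6680 ± 1370 in yak and 3106 ± 694 in castrated males (SD, n = 3 each), a difference of 1.11 ± 0.32 (SE, adjusted p = 0.0399 by limma). Its other probe sets gave 1.69 and 1.48 (adjusted p = 0.0153 and 0.00195 by limma).

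Both calls depended on single arrays. Without any 1 castrated male, or without the first or second yak, neither MYC nor the brightest CEBPD probe set passed, with adjusted p up to 0.1 for MYC and up to 0.134 for CEBPD by limma. The CEBPD probe set with the difference of 1.48 passed without any 1 of the 9 arrays (adjusted p at most 0.0114 by limma), and the one with 1.69 did not pass without yak 1 or 2 (up to 0.0617). With all 15 arrays in the fit MYC and the brightest CEBPD probe set gave adjusted p = 0.14 and 0.0965 by limma. The differences of the remaining genes were 1.26 ± 0.49 for NR4A2, 0.98 ± 0.68 for FOS, 0.35 ± 0.79 for EGR1 and 0.28 ± 0.27 for KLF4, with adjusted p = 0.0996, 0.347, 0.794 and 0.511 by limma.

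In buffalo against castrated males limma called 3 of the 6 genes lower and none higher, where 24.8% of all tested probe sets were called lower and 17.9% higher. KLF4 averaged 429 ± 89.6 in buffalo and 1818 ± 590 in castrated males (SD, n = 3 each), a difference of −2.004 ± 0.27 (SE, adjusted p = 0.000313 by limma). NR4A2 averaged 42.9 ± 2.12 in buffalo and 215 ± 119 in castrated males, a difference of −1.82 ± 0.49 (adjusted p = 0.0135 by limma). All 3 buffalo values of NR4A2 lay below the level of the filter, which the probe set passed through the groups where it is brighter, so the size of its difference and the small spread in buffalo are those of dim values. EGR1 averaged 215 ± 79.2 in buffalo and 1213 ± 608 in castrated males, a difference of −2.32 ± 0.79 (adjusted p = 0.0383 by limma). The second EGR1 probe set gave 0.07 (adjusted p = 0.662 by limma).

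The EGR1 call was lost without castrated male 2 or 3, without yak 2 and without any 1 buffalo, with adjusted p up to 0.119 by limma, whereas KLF4 and NR4A2 passed without any 1 array. With all 15 arrays in the fit EGR1 gave adjusted p = 0.0678 by limma. MYC, FOS and CEBPD gave −0.11 ± 0.29, −0.57 ± 0.68 and 0.01 ± 0.32 (adjusted p = 0.783, 0.526 and 0.983 by limma). The other CEBPD probe sets gave −1.01 and 0.26 in this comparison, with opposite signs.

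In buffalo against yak the ranges of all 6 genes lay lower in buffalo without overlap, where 28.5% of all tested probe sets did. limma called 5 of the 6 lower and none higher, where 24.1% of all tested probe sets were called lower and 20% higher. The difference was −3.07 ± 0.49 for NR4A2, −2.67 ± 0.79 for EGR1, −2.28 ± 0.27 for KLF4, −1.20 ± 0.29 for MYC and −1.10 ± 0.32 for CEBPD (SE), with adjusted p = 0.000832, 0.0212, 0.000143, 0.00749 and 0.0198 by limma. The second EGR1 probe set gave −0.25 (adjusted p = 0.123 by limma). FOS gave −1.55 ± 0.68 (adjusted p = 0.0909 by limma), and its second probe set gave −2.59 (adjusted p = 0.0278 by limma). The brighter FOS probe set passed without castrated male 1 (adjusted p = 0.0313 by limma), and the second did not pass without yak 1, yak 2 or buffalo 1 (up to 0.0927).

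The NR4A2 difference again sets dim buffalo values against brighter ones, and it ranged from −3.53 to −2.36 over the alternatives. NR4A2, KLF4 and MYC passed without any 1 array. EGR1 did not pass without the first or second yak or the first or second buffalo (adjusted p up to 0.0646 by limma), and the brightest CEBPD probe set did not pass without the first or second yak (up to 0.072). The other CEBPD probe sets gave −2.69 and −1.22 (adjusted p = 0.000428 and 0.00135 by limma). Both passed in all 17 alternatives (adjusted p at most 0.00266 and 0.00784 by limma). With all 15 arrays in the fit MYC and that CEBPD probe set gave adjusted p = 0.059 and 0.0545 by limma.

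**Figure D4:**
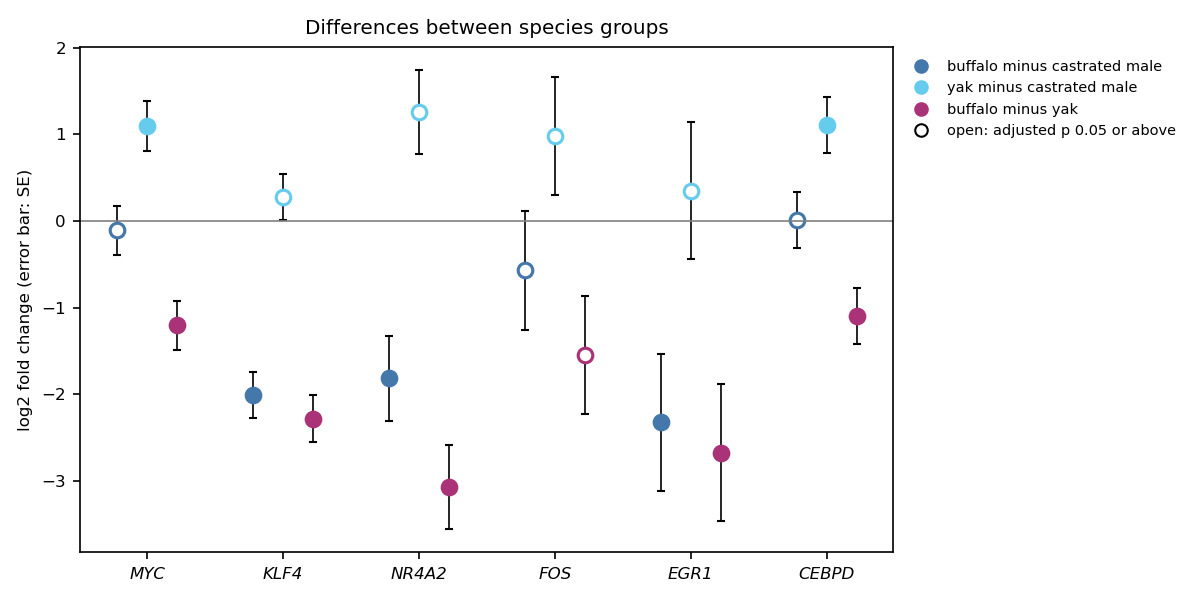
Difference of each gene (x axis) between species (y axis, log2 of intensity plus 16, first-named minus second-named group), with bars of ± SE. Filled symbols have an adjusted p under 0.05 by limma and open ones do not. KLF4 and NR4A2 lie between −1.82 and −3.07 in both buffalo comparisons, while the values for yak against castrated males lie between 0.28 and 1.26.

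Among the 24 other immediate early genes, 1 was higher and 2 were lower in yak against castrated males, where 8.22% of all tested probe sets were higher and 9.9% lower. DUSP1 was higher by 0.85, and PLK2, a polo-like kinase, and ZFP36L1 fell, with differences of −1.56 and −0.77 (adjusted p = 0.0344, 0.000632 and 0.0197 by limma). In buffalo 9 of 24 were lower than in castrated males and 1 was higher, where 24.8% of all tested probe sets were lower and 17.9% higher, and the median of the 24 was −0.62, against −0.02 over all tested probe sets. CCN2 averaged 390 ± 105 in buffalo and 2541 ± 924 in castrated males (SD, n = 3 each), and MCL1 averaged 565 ± 122 in buffalo and 2027 ± 356 in castrated males. ID3 and RHOB fell as well, with differences of −1.41 and −1.498. The adjusted p of these 4 genes lay between 6.91e-05 and 0.000526 by limma.

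In buffalo against yak 10 of the 24 were lower and 2 higher, where 24.1% of all tested probe sets were lower and 20% higher, with PLK2 higher by 1.45 (adjusted p = 0.000198 by limma). Of the 6 EGR, NR4A and KLF genes, 2 were lower and 2 higher in buffalo against yak. Against castrated males 3 were lower and 2 higher, where 24.8% of all tested probe sets were lower and 17.9% higher. NR4A1 and KLF10 fell in buffalo against both, and KLF5 was higher by 1.25 against yak (adjusted p = 0.00287 by limma). NR4A1 averaged 110 ± 33.8 in buffalo, against 669 ± 179 in yak and 649 ± 279 in castrated males (SD, n = 3 each). KLF11 was higher in buffalo, by 1.56 against yak and 0.55 against castrated males, and lower in yak than in castrated males, with a difference of −1.01 (adjusted p = 0.000106, 0.0283 and 0.00468 by limma). Of the 8 AP-1 and ATF factors, JUNB and ATF3 fell in buffalo against yak, with differences of −1.02 and −2.94, while FOSL1 and FOSL2 were higher by 0.29 and 0.45 (adjusted p = 0.0179, 0.028, 0.0192 and 0.0456 by limma).

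Among 14 C/EBP and stress response factors, CEBPB averaged 622 ± 86.8 in yak and 323 ± 3.96 in castrated males (SD, n = 3 each; difference 0.90, adjusted p = 0.0093 by limma), and NFE2L2, a factor of the oxidative stress response, was higher by 0.97 (adjusted p = 0.00912 by limma). ATF5 and SESN2 fell in the same comparison, with differences of −0.79 and −0.60. In buffalo 3 of the 14 were lower than in castrated males and 1 higher, where 24.8% of all tested probe sets were lower and 17.9% higher. Among the lower were ATF4, the central factor of the integrated stress response, and HSF1, which induces heat shock genes. Their differences were −1.34 and −1.07 (adjusted p = 9.78e-05 and 0.000197 by limma). In buffalo against yak 5 were lower and 4 higher, where 24.1% of all tested probe sets were lower and 20% higher. CDKN1A, a cell cycle inhibitor, was higher by 2.27 in that comparison (adjusted p = 0.0072 by limma).

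Among 9 MYC partners, 1 was higher and 2 were lower in yak against castrated males. Of all tested probe sets, 8.22% were higher and 9.9% lower. The 1 higher was MAX, by 0.72 (adjusted p = 0.0189 by limma). In buffalo against yak 5 of the 9 were lower and 1 higher, against 24.1% and 20% of all tested probe sets. Among the lower were MAX, BIN1, MLX and MLXIP, with differences of −1.61, −1.10, −1.18 and −1.20 (adjusted p at most 0.000389 by limma). Of 19 MYC target genes none was higher in yak and 2 were lower, where 8.22% of all tested probe sets were higher and 9.9% lower: LDHA, a glycolytic enzyme, fell by 0.68 and NOP16, a nucleolar protein, fell by 1.01 (adjusted p = 0.0153 and 0.0339 by limma). In buffalo against yak 4 of the 19 were higher and 1 lower, where 20% of all tested probe sets were higher and 24.1% lower. Among the higher were NOP56 (1.12) and GNL3 (1.17), both nucleolar proteins.

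Of 10 interleukin 6 and STAT3 response genes, FGL1 and STAT3 fell in yak against castrated males, where 9.9% of all tested probe sets were lower. Their differences were −1.13 and −0.82 (adjusted p = 0.0168 and 0.0291 by limma). In buffalo against yak 6 of the 10 were higher, STAT3 by 0.90, where 20% of all tested probe sets were higher. Of 10 glucocorticoid response genes, DUSP1 alone passed in yak against castrated males, where 8.22% of all tested probe sets were higher. Of 11 NF-kB response genes, 3 fell in yak and 5 in buffalo against castrated males, where 9.9% and 24.8% of all tested probe sets were lower. Among them was VCAM1, an adhesion molecule of activated endothelium, with differences of −1.15 in yak and −1.40 in buffalo (adjusted p = 0.000936 and 6.78e-05 by limma). Several marker sums moved with the species as well. Macrophage and fibroblast sums were lower without overlap in both species than in castrated males, as given above. Limma called 10 of 15 macrophage and 7 of 11 fibroblast markers lower in buffalo, where 24.8% of all tested probe sets were lower. In yak it called 6 of 15 and 8 of 11 lower, where 9.9% of all tested probe sets were. Muscle fibre sums were lower in buffalo than in castrated males and yak. Against castrated males 8 of 14 markers were called lower and 2 higher, where 24.8% and 17.9% of all tested probe sets were. Against yak 10 of 14 were called lower and 2 higher, where 24.1% and 20% of all tested probe sets were. Adipocyte sums were 3199.7 to 3862 in yak, against 5873 to 8582 in castrated males. The actin 3′ to 5′ ratio was higher in both species than in castrated males. The part of these in the differences between species was not tested.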

How the data were processed

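Probe set intensities on a linear scale were used as deposited by the authors, with their software and normalisation not given in the sources used here. RNA was extracted with Trizol and labelled with biotin, per the labels' protocols. Gene symbols came from the platform annotation: 13292 of 24016 non-control probe sets had 1 symbol, 86 had several and 10638 were not listed.

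Intensities were taken as log2 of the value plus 16 without renormalisation. Probe sets whose mean over 15 arrays exceeded the 40th percentile (6.42) were tested: 14409 were, 9607 were not, and 112 control probe sets were left out. Differences were fitted with limma 3.58.1 in R 4.3.3 (trended prior), on 9 arrays for each family of 3 comparisons, with Benjamini-Hochberg adjustment over all tested probe sets and a threshold of 0.05. Fits were tested on simulated data. The number of arrays limits the precision, and an exact permutation test of 3 against 3 arrays cannot go below 0.1.

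Members and gene lists were chosen with earlier results of these data known. Of each list, up to 4 genes with the smallest p past the threshold are named per comparison, and the 3 genes most like each member. Alternatives covered the added constant, the filter, quantile normalisation, the arrays fitted and each array left out. The deviations of same-numbered arrays correlated over 0.1 in 5 of 18 pairs (−0.12 to 0.15), so replicate numbers were not taken to pair samples.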

Additional observations from a re-analysis of the deposited data

How the results depend on the processing

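No group difference of a member that passed the test changed sign under any alternative. KLF4 in both buffalo comparisons and NR4A2 in buffalo against yak passed in every alternative run. The buffalo values of NR4A2 are dim and the probe set passed the filter through brighter groups, so these passes add no support for NR4A2. In buffalo against castrated males NR4A2 did not pass with castrated males and females together as the cattle group (adjusted p = 0.0966 by limma). Leaving out 1 array at a time, probe sets called ranged from 1327 to 3118 in yak against castrated males (2611 with all), and members called higher there from 0 to 2. Members lower in buffalo ranged from 2 to 3 against castrated males and from 3 to 6 against yak. Probe sets called ranged from 41 to 995 in castrated against intact males (211 with all), from 77 to 2194 in females against intact males (792 with all) and from 2 to 10 in females against castrated males (3 with all). With all 15 arrays in 1 fit, members called were 0 higher in yak against castrated males and 3 lower in buffalo against yak, and probe sets called were 718, 1911 and 5 in the 3 cattle comparisons in that order. Without the filter, 9459 probe sets were called in buffalo against castrated males. With castrated males and females as the cattle group, an alternative added after seeing the data, 1 member was higher and 1 lower in buffalo; that group holds the female arrays whose low values chose MYC, KLF4 and NR4A2, so it is no separate test of the members. In females against castrated males, 0 probe sets were called with 1 added before the logarithm and 1 with a filter at the 60th percentile. Within-group pairs that passed numbered 2 without intact males, 1 without castrated males and 2 without females. The cause was not tested, beyond the fewer or more arrays and probe sets of each setting.

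With the replicate number as a block, 2314 probe sets were called in yak against castrated males, 5845 in buffalo against castrated males, 6072 in buffalo against yak, 143 in castrated against intact males, 642 in females against intact males and 3 in females against castrated males. Among members the block changed the call of EGR1 in buffalo against castrated males (adjusted p = 0.0575 by limma). With 3 arrays a group, calls of single genes with wide spread depend on which arrays are in.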
